A study of Mus musculus with 9 samples.

Results

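The genes described here are 10 heat shock chaperones and co-chaperones of the cytosol and the mitochondrion, chosen by name from the gene-level expression table: Hspa8, Dnaja1, Dnajb1, Hsph1, Bag3, Hsp90aa1, Hsp90ab1, Hspb1, Hspd1 and Hspe1. They are 10 of 45706 genes in the table, and all 10 reached 1 TPM, a unit of relative transcript abundance corrected for transcript length, in at least 3 libraries and were among the 13248 genes tested. PolyA RNA of whole lungs was sequenced. The lungs came from BALB/c females 4 to 6 weeks old that had received 4T1 cells, a line derived from a mouse mammary carcinoma and known to spread to the lung, in the right flank. All 9 lungs came from mice given these cells, the PBS group included, so no comparison has lungs without tumour cells as its control. On days 7 and 14 the mice were given nanocapsules of an antibody against the immune checkpoint receptor PD1 (150 µg per mouse), the free anti-PD1 antibody or phosphate-buffered saline (PBS), and lungs were taken on day 21. Whether the dose applies to the free antibody too is not settled by the labels' wording. There were 3 lungs in each group. No label ties a lung to a named animal, and the p-values thus reflect the spread between these samples, which may be partly technical.

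Heat shock chaperones bind unfolded or partly folded proteins and help them reach or regain their shape. The cytosolic HSP70 system loads its clients with the help of J-domain co-chaperones and releases them with nucleotide exchange factors, HSP90 takes over late folding steps of kinases and receptors, and HSP60 with its lid HSP10 folds proteins inside mitochondria. Many of these genes are induced by the transcription factor HSF1, which binds heat shock elements, short DNA runs in which GAA and TTC units alternate.

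Heat shock element letters were looked for in the RefSeq promoter windows, which run from 250 bases before to 50 after a start site. The table held 12 windows for 7 of the 10 genes, while Hspa8, Hsp90aa1 and Hsp90ab1 had none. The motifs GAANNTTC and TTCNNGAA each read the same on both strands and can overlap with each other. Either was found in 6 of the 7 genes, all except Dnajb1, and in 7 of their 12 windows, against 15.1% of all 32851 windows in the table. The 3-unit form, in which either motif is followed by a further unit at the same spacing, was found in 3 of the 7 genes, Hsph1, Hspd1 and Hspe1, and in 4 of the 12 windows, against 0.603% of all windows. Both Hsph1 windows overlap, as do those of Hspd1 and Hspe1, so the same bases are counted more than once. The Dnaja1 match lies in the window of 1 start only and is absent from its other windows. All bases of the matches of Hsph1, Dnaja1, Hspd1, Hspe1 and Bag3 are annotated as exonic, and none of those of Hspb1, with exons of any gene on either strand counted. The Hspe1 match lies upstream of the annotated Hspe1 gene, which begins at 55088132, and within the span of Hspd1 on the opposite strand. These matches describe letters and are not measured binding sites.

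The matching stretches are shown so that the elements can be set beside the transcript levels that follow, with the matching letters in capitals. Positions count from the RefSeq start, whose first base is 1. Hspd1 and Hspe1 are read in opposite directions from a shared start region, and the longest run found for any of the genes lies there (shown on the plus strand, chr1:55088053-55088082, positions -95 to -66 of Hspe1). Hspb1 had a pair of motifs upstream of the start (plus strand, chr5:135887762-135887869, positions -157 to -50), Hsph1 a 3-unit element just past the start (minus strand, chr5:149636279-149636308, positions 8 to 37) and a single motif before it (TTCTCGAA, minus strand, chr5:149636362-149636369, positions -54 to -47), Dnaja1 a single motif (plus strand, chr4:40722333-40722362, positions -135 to -106) and Bag3 a single motif past the start (plus strand, chr7:128523603-128523632, positions 21 to 50), all in GRCm38.p6.
Hspe1 and Hspd1: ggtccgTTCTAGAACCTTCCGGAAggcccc
Hspb1: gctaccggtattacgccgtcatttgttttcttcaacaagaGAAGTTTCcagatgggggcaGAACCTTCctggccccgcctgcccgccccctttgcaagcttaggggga
Hsph1: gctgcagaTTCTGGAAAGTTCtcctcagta
Dnaja1: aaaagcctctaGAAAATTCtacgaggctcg
Bag3: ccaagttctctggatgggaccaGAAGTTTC

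By value, 9 of the 10 chaperones, all except Dnajb1, were least abundant in the nanocapsule lungs. All 10 had a lower mean log2(TPM + 1) there than in the PBS lungs, by 0.23 to 1.45 on that scale, with a median log2 difference of -0.60 against -0.11 over all tested genes. In the anti-PD1 lungs 7 of the 10 were lower than in the PBS lungs and 3 were higher, with a median of -0.20 against 0.04 over all tested genes. The steepest difference was that of Hsph1, and the smallest error relative to its difference was that of Dnaja1. None of the 10 passed limma's test at a Benjamini-Hochberg adjusted p of 0.05 over all tested genes in any of 4 comparisons. The background was as sparse: limma called 0.00755% of the tested genes in each of the 3 comparisons with PBS (the nanocapsule, anti-PD1, and both antibody forms pooled) and 0.106% when the 2 antibody forms were compared. The differences below are therefore given as values with their errors.

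Weaker rules gave these counts. At an unadjusted limma p of 0.05, 8 of the 10 chaperones were lower with the nanocapsule than with PBS, where 8.92% of tested genes were. In 9 of the 10 the 3 nanocapsule lungs all lay below the 3 PBS lungs, which held for 11.9% of tested genes. For anti-PD1 against PBS these counts were 4 of 10, against a background of 8.06%, and 4 of 10, against 13.4%. With both antibody forms pooled, 7 of 10 were lower than PBS at an unadjusted p of 0.05, against 5.97%, and in 4 of 10 all 6 treated lungs lay below all 3 PBS lungs, against 1.84%. These 4 were Hsph1, Hsp90aa1, Dnaja1 and Dnajb1. The comparisons with PBS share the same PBS libraries and are not independent of each other, and most of the 10 genes vary together, so the counts are not 10 separate observations.

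**Figure D1:**
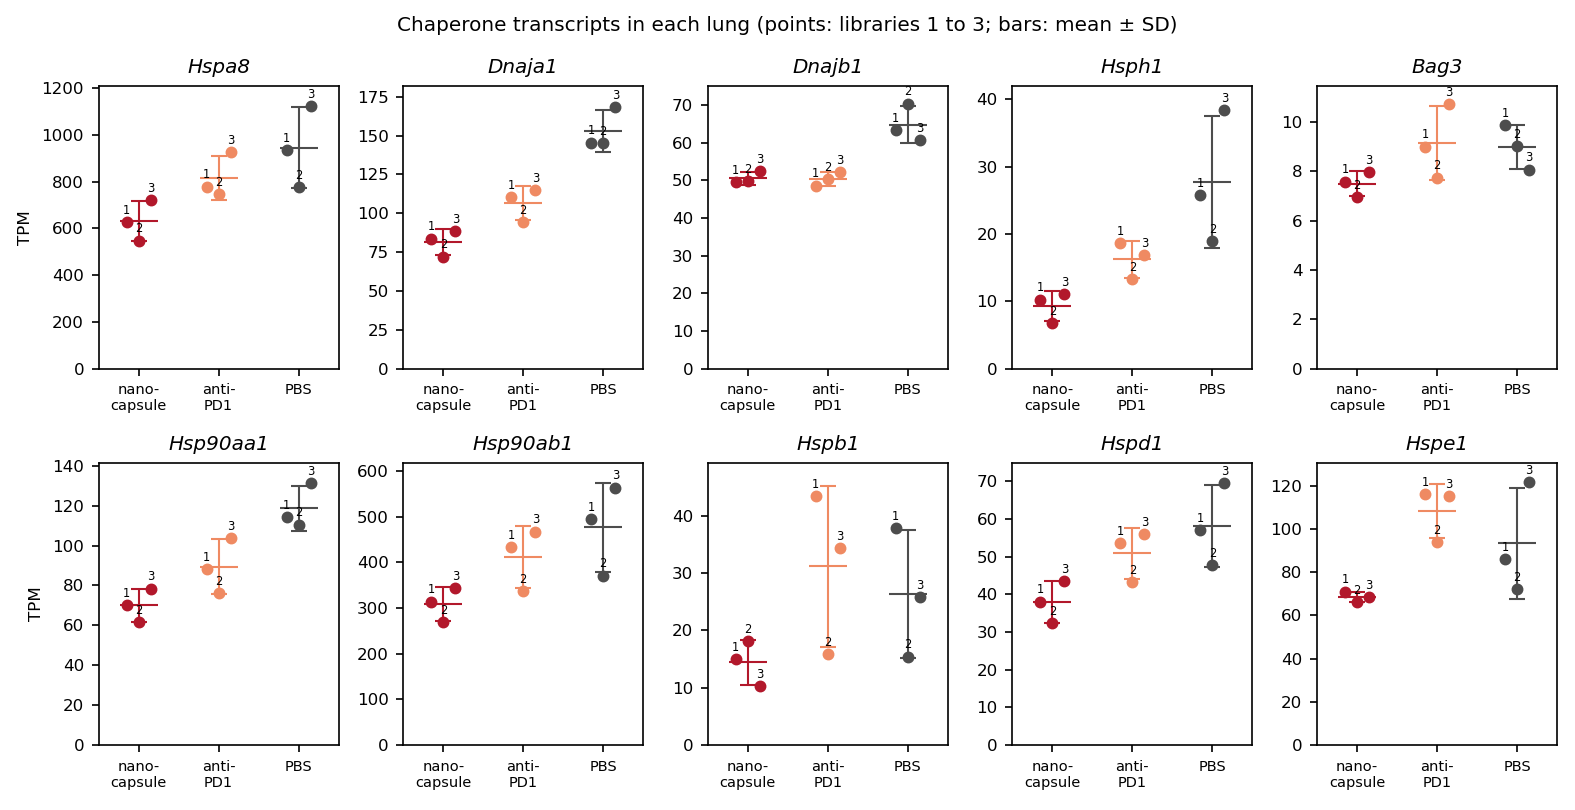
TPM of each of the 10 chaperone genes (y axes, linear, starting at 0) in the nanocapsule, anti-PD1 and PBS lungs. Points are libraries 1 to 3 of each group and bars are the mean ± SD (n = 3). The nanocapsule lungs lie below the PBS lungs without overlap in 9 genes, all except Hspb1.

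A library had 12194 to 13407 genes at 1 TPM or more, and Spearman correlations between libraries lay from 0.973 to 0.982 inside a group and from 0.950 to 0.981 across groups. TPM keep no sequencing depth, so the depth was unknown. Markers of lung tissue were present: all 10 alveolar epithelial and all 10 endothelial markers were detected, and neutrophil genes were highly expressed. The neutrophil calprotectin genes, S100a8 with S100a9, took 15.5% to 17.5% of TPM in the nanocapsule lungs, 10.3% to 11.95% in the anti-PD1 lungs and 12.1% to 16.7% in the PBS lungs. In a bulk sample, fewer cells of a type and less RNA per cell cannot be told apart. With 3 lungs against 3, the smallest two-sided p of an exact permutation test is 0.1.

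As TPM are corrected for transcript length, the levels of the genes can be set beside each other. Over the 9 libraries Hspa8 averaged 798 ± 174 TPM (SD, n = 9) and Hsp90ab1 399 ± 96.1 TPM (SD, n = 9), and together they made up 70.1% to 74.7% of the summed TPM of the 10 genes. Dnaja1 (114 ± 32.9 TPM), Hsp90aa1 (92.7 ± 23.4 TPM) and Hspe1 (90.1 ± 22.6 TPM) followed (SD, n = 9). Dnajb1 (55.2 ± 7.70 TPM) and Hspd1 (49.0 ± 11.3 TPM) came next, then Hspb1 (23.99 ± 11.8 TPM), Hsph1 (17.8 ± 9.61 TPM) and Bag3 (8.54 ± 1.202 TPM) (SD, n = 9). Each of Hspa8, Hsp90ab1 and Dnaja1 exceeded the next gene in all 9 libraries. The order within 4 neighbouring pairs was not fixed: Hsp90aa1 exceeded Hspe1 in 4 of 9 libraries, Dnajb1 exceeded Hspd1 in 6, Hspb1 exceeded Hsph1 in 6 and Hsph1 exceeded Bag3 in 8. Summed over the 10 genes, the level was 1280 ± 147 TPM with the nanocapsule, 1691 ± 209 TPM with anti-PD1 and 1972 ± 336 TPM with PBS (SD, n = 3), or 0.128% of all TPM with the nanocapsule, 0.169% with anti-PD1 and 0.197% with PBS.

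Among the HSP70 genes, Hspa8 encodes HSC70, the constitutive cytosolic HSP70 that folds new proteins and uncoats clathrin vesicles (chromosome 9, 40800984 to 40810087, GRCm38, annotated in GENCODE M21). It had 626, 548 and 720 TPM with the nanocapsule, 778, 748 and 925 TPM with anti-PD1 and 935, 778 and 1123 TPM with PBS. All 3 nanocapsule lungs were below every lung of the other groups, while the anti-PD1 and PBS ranges overlapped. The log2 difference from PBS was -0.57 (SE 0.15, limma adjusted p = 0.363) for the nanocapsule and -0.20 (SE 0.15, limma adjusted p = 0.536) for anti-PD1, and the nanocapsule differed from anti-PD1 by -0.37 (SE 0.15, limma adjusted p = 0.154).

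Dnaja1 encodes a J-domain protein of the HSP40 family that stimulates the ATPase of HSC70 (chromosome 4, 40722150 to 40737149). Its level was 83.7, 72.0 and 88.6 TPM with the nanocapsule, 110, 94.3 and 115 TPM with anti-PD1 and 145, 145 and 169 TPM with PBS. The 3 groups were fully separated, with the nanocapsule lungs lowest and the PBS lungs highest. It was the third of 13248 genes by p in the nanocapsule against PBS comparison, at -0.90 on the log2 scale (SE 0.11, limma adjusted p = 0.0502), and for anti-PD1 against PBS the difference was -0.52 (SE 0.11, limma adjusted p = 0.211). The first of these passed the threshold with median-of-ratios scaling (limma adjusted p = 0.0341), and did not when any 1 library was left out (limma adjusted p from 0.0656 to 0.305). With both forms pooled against PBS the difference was -0.71 (SE 0.10, limma adjusted p = 0.0854).

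Dnajb1, the other J-domain gene and a classical heat-inducible HSP40 (chromosome 8, 83608193 to 83612653), had another pattern. It had 49.4, 49.7 and 52.5 TPM with the nanocapsule, 48.5, 50.3 and 52.1 TPM with anti-PD1 and 63.3, 70.4 and 60.7 TPM with PBS. Both treated groups lay in 1 narrow band below all PBS lungs. Its log2 differences from PBS were -0.35 for the nanocapsule (SE 0.09, limma adjusted p = 0.346) and -0.36 for anti-PD1 (SE 0.09, limma adjusted p = 0.211), and the nanocapsule and anti-PD1 groups differed by 0.01 (SE 0.09, limma adjusted p = 0.969), a sign that turned when nanocapsule 3 or anti-PD1 1 was left out.

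The exchange factors of HSP70 were Hsph1 and Bag3. Hsph1 encodes HSP110, which opens the nucleotide pocket of HSP70 and helps to dissolve protein aggregates (chromosome 5, 149614287 to 149636376). It had 10.2, 6.74 and 11.01 TPM with the nanocapsule, 18.7, 13.2 and 16.9 TPM with anti-PD1 and 25.8, 19.0 and 38.4 TPM with PBS. No 2 groups overlapped, although the closest lungs, anti-PD1 1 and PBS 2, were nearly level. The log2 difference from PBS was -1.45 for the nanocapsule (SE 0.25, limma adjusted p = 0.278) and -0.69 for anti-PD1 (SE 0.25, limma adjusted p = 0.238). The mean TPM with the nanocapsule was 0.336 of the mean with PBS. In the nanocapsule against PBS comparison the value for Hsph1 lay at percentile 0.287 of all tested genes, counted from the lowest. PBS 3 weighed on the size: without it, the nanocapsule difference was -1.19 and the anti-PD1 difference -0.44.

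Bag3, which links HSP70 to selective autophagy (chromosome 7, 128523616 to 128546981), had the smallest of the differences between the nanocapsule and PBS lungs. It had 7.58, 6.96 and 7.95 TPM with the nanocapsule, 8.997, 7.74 and 10.7 TPM with anti-PD1 and 9.85, 9.02 and 8.06 TPM with PBS. The nanocapsule lungs were the lower ones, although the nearest pair, nanocapsule 3 and PBS 3, differed by little. The log2 difference was -0.23 (SE 0.14, limma adjusted p = 0.594) for the nanocapsule against PBS and 0.02 (SE 0.14, limma adjusted p = 0.966) for anti-PD1 against PBS, and the second was -0.052 with median-of-ratios scaling and -0.047 with quantile normalization. It was also below 0 without anti-PD1 3 (-0.091) or PBS 3 (-0.050).

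**Figure D2:**
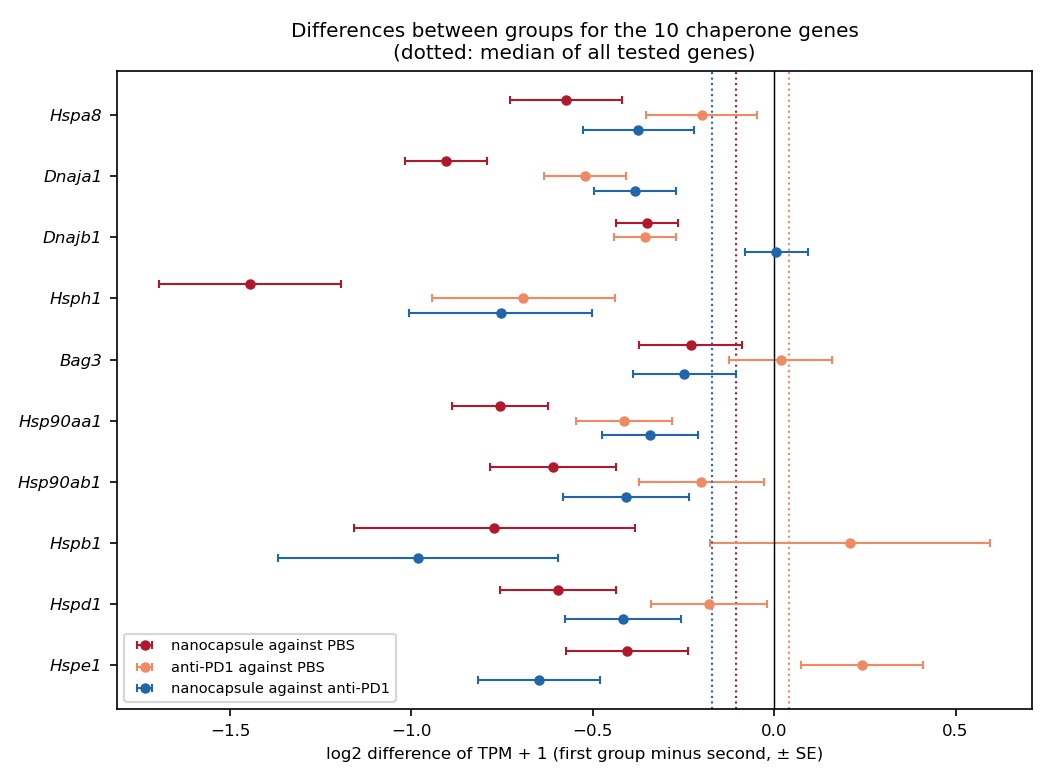
Log2 difference of TPM + 1 (x axis, first group minus second, ± SE of the limma fit) for each gene in 3 comparisons. Dotted lines are the medians of all tested genes (-0.11, 0.04 and -0.17 for the nanocapsule against PBS, anti-PD1 against PBS and the nanocapsule against anti-PD1). Hsph1 lies farthest to the left at -1.45, and Dnajb1 lies at 0.01 between the nanocapsule and anti-PD1.

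Both cytosolic HSP90 genes were lower in the nanocapsule lungs by value. Hsp90aa1 encodes the stress-inducible HSP90 alpha (chromosome 12, 110690605 to 110702728). It had 70.1, 61.6 and 78.3 TPM with the nanocapsule, 88.1, 76.2 and 104 TPM with anti-PD1 and 114, 110 and 131 TPM with PBS. All 6 treated lungs lay below all PBS lungs, with log2 differences of -0.76 for the nanocapsule (SE 0.13, limma adjusted p = 0.278) and -0.41 for anti-PD1 (SE 0.13, limma adjusted p = 0.222). Hsp90ab1 encodes the constitutive HSP90 beta (chromosome 17, 45567775 to 45573271). It had 314, 269 and 344 TPM with the nanocapsule, 433, 336 and 467 TPM with anti-PD1 and 494, 371 and 563 TPM with PBS. Here the anti-PD1 lungs overlapped with both other groups, and the log2 differences from PBS were -0.61 for the nanocapsule (SE 0.17, limma adjusted p = 0.365) and -0.20 for anti-PD1 (SE 0.17, limma adjusted p = 0.587). The HSP90 genes are close paralogs, and reads from shared stretches could be assigned to either.

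Hspb1, the small heat shock protein HSP25 that holds unfolded proteins and steadies actin filaments (chromosome 5, 135887919 to 135889563), varied most within groups, with a coefficient of variation of 27.1% with the nanocapsule, 45% with anti-PD1 and 42.6% with PBS. It had 14.9, 18.1 and 10.3 TPM with the nanocapsule, 43.4, 15.8 and 34.3 TPM with anti-PD1 and 37.8, 15.4 and 25.8 TPM with PBS. The nanocapsule lungs were low, but so were anti-PD1 2 and PBS 2, and all groups overlapped. The log2 difference from PBS was -0.77 for the nanocapsule (SE 0.39, limma adjusted p = 0.518) and 0.21 for anti-PD1 (SE 0.39, limma adjusted p = 0.825). The first was -0.47 without PBS 1 and -1.10 without PBS 2, and the second turned to -0.08 without anti-PD1 1 and to -0.11 without PBS 2.

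The libraries highest in Hspb1 were also the highest in markers of fibroblasts and smooth muscle. The summed TPM of 8 such markers, of which 7 were detected and none was at 0 in every library, ranged from 105 to 157 with the nanocapsule, from 123 to 296 with anti-PD1 and from 116 to 272 with PBS. The 4 libraries highest in Hspb1 were also the 4 highest in this sum, the last of them, PBS 3, only just ahead of nanocapsule 1. Of the 7 tested markers, 5 were lower with the nanocapsule than with PBS, against 71.2% of all tested genes. Their median log2 difference was -0.04, against -0.11 over all tested genes. The part of any of these cells in the Hspb1 levels was not tested.

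The mitochondrial chaperonin genes lie head to head and are read in opposite directions. Hspd1 encodes HSP60, the folding chamber (chromosome 1, 55077835 to 55088243, minus strand), and Hspe1 encodes its lid HSP10 (chromosome 1, 55088132 to 55091307, plus strand). Their annotated first exons overlap, and without a stated use of strand reads from the overlap could be given to either gene. RefSeq gives 2 starts for Hspd1. The start farther from that of Hspe1 is 216 bases away from it, and the run of heat shock element letters printed above lies between these starts. The nearer Hspd1 start lies on the other side of the Hspe1 start, and its window does not hold the run.

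A window of each gene holds that run, and the levels of the genes stood in different orders over the groups. Hspd1 had 38.0, 32.3 and 43.5 TPM with the nanocapsule, 53.5, 43.2 and 56.0 TPM with anti-PD1 and 57.0, 47.8 and 69.6 TPM with PBS. The nanocapsule lungs lay below all PBS lungs, and the anti-PD1 range overlapped with both. The log2 differences of Hspd1 from PBS were -0.60 for the nanocapsule (SE 0.16, limma adjusted p = 0.363) and -0.18 for anti-PD1 (SE 0.16, limma adjusted p = 0.604).

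Hspe1 had 71.0, 66.2 and 68.4 TPM with the nanocapsule, 116, 94.0 and 115 TPM with anti-PD1 and 86.0, 72.3 and 122 TPM with PBS. Its anti-PD1 mean was the highest of the groups, and its nanocapsule lungs were below every other lung. The log2 difference was -0.41 for the nanocapsule against PBS (SE 0.17, limma adjusted p = 0.466), 0.24 for anti-PD1 against PBS (SE 0.17, limma adjusted p = 0.493) and -0.65 for the nanocapsule against anti-PD1 (SE 0.17, limma adjusted p = 0.0773). The last was the smallest adjusted p of the 10 genes in that comparison. It passed without PBS 2 (limma adjusted p = 0.0322) or PBS 3 (limma adjusted p = 0.0440), which leave the difference itself as it is and change only the shared estimate of the spread.

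Ratios within a library do not depend on the scaling of that library. The 5 pairs were picked with the values known, and their 20 exact permutation tests are adjusted together. The ratio of Hspe1 to Hspd1 was 1.87, 2.05 and 1.57 with the nanocapsule, 2.17, 2.18 and 2.06 with anti-PD1 and 1.51, 1.51 and 1.75 with PBS. All anti-PD1 lungs were above all others, with a difference from PBS of 0.544 (exact permutation p = 0.1, the smallest that 3 against 3 allow, adjusted p = 0.153).

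The ratio of Hsp90aa1 to Hsp90ab1 was 0.224, 0.229 and 0.228 with the nanocapsule, 0.204, 0.227 and 0.222 with anti-PD1 and 0.231, 0.298 and 0.233 with PBS. The treated lungs were all lower, by little except against PBS 2 (pooled against PBS, exact permutation p = 0.0119, adjusted p = 0.119). The ratio of Hsph1 to Hspa8 averaged 0.0146 ± 0.00208 with the nanocapsule, 0.0200 ± 0.00347 with anti-PD1 and 0.0287 ± 0.00501 with PBS (SD, n = 3). Again all 6 treated lungs were below the PBS lungs (pooled against PBS, exact permutation p = 0.0119, adjusted p = 0.119).

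The ratio of Dnajb1 to Dnaja1 was 0.624 ± 0.0576 with the nanocapsule, 0.476 ± 0.0504 with anti-PD1 and 0.426 ± 0.0624 with PBS (SD, n = 3). The nanocapsule lungs were above all others (against PBS, exact permutation p = 0.1, adjusted p = 0.153). For Bag3 over Hspa8 the nanocapsule and PBS lungs overlapped (exact permutation p = 0.2, adjusted p = 0.235). No ratio passed after adjustment.

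**Figure D3:**
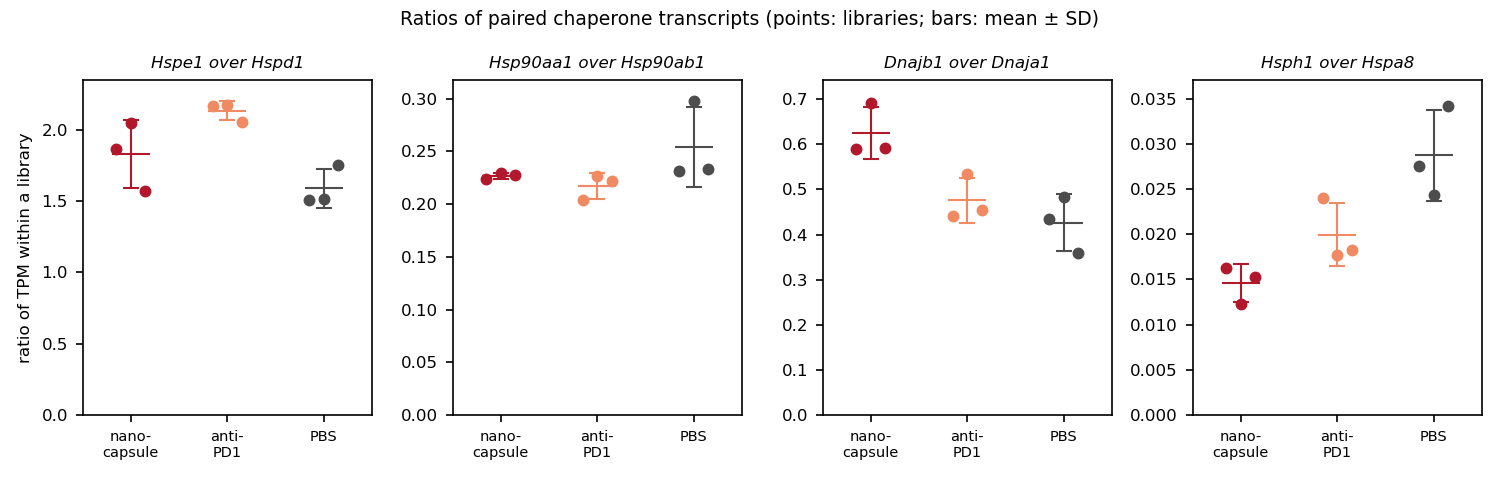
Ratios of TPM within each library (y axes, linear, starting at 0) for 4 pairs of chaperone genes in the nanocapsule, anti-PD1 and PBS lungs. Points are libraries and bars the mean ± SD (n = 3). The Hspe1 to Hspd1 ratio is highest in the anti-PD1 lungs, at 2.06 to 2.18, and the Hsph1 to Hspa8 ratio is highest in the PBS lungs.

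For the 7 genes with promoter windows, the matches are set beside the log2 difference between the nanocapsule and PBS lungs. Hsph1, with a 3-unit match and a single motif, had the steepest difference (-1.45). Hspd1 and Hspe1, which share the longer run, had -0.60 and -0.41. Hspb1, with a pair of motifs, had -0.77. Dnaja1 and Bag3, with a single motif each, had -0.90 and -0.23. Dnajb1, with no match in its windows, had -0.35. The part of these elements in the differences was not tested.

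The nanocapsule lungs were also compared with the anti-PD1 lungs directly. Of the 10 genes, 9 were lower in the nanocapsule lungs and 1, Dnajb1, was higher by 0.01, with a median log2 difference of -0.40, where 70.8% of all tested genes were lower. Over all tested genes the median was -0.17, and with median-of-ratios scaling it was at 0, as it then was for the nanocapsule against PBS, so values are also given relative to it. Relative to that median, Hspb1 stood at -0.81, Hsph1 at -0.58, Hspe1 at -0.48 and Bag3 at -0.08. Between Hspe1 and Bag3 lay Hspd1 (-0.25), Hsp90ab1 (-0.24), Dnaja1 (-0.21), Hspa8 (-0.20) and Hsp90aa1 (-0.17), while Dnajb1 lay above the median, at 0.18. At an unadjusted limma p of 0.05, 8 of the 10 were lower, against 21% of all tested genes, and in 4 of 10 all nanocapsule lungs lay below all anti-PD1 lungs, against 24.6%. Against PBS the nanocapsule median over all genes was -0.11, and relative to it Hsph1 stood at -1.34, Dnaja1 at -0.80, Hsp90aa1 at -0.65 and Bag3 at -0.12.

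**Figure D4:**
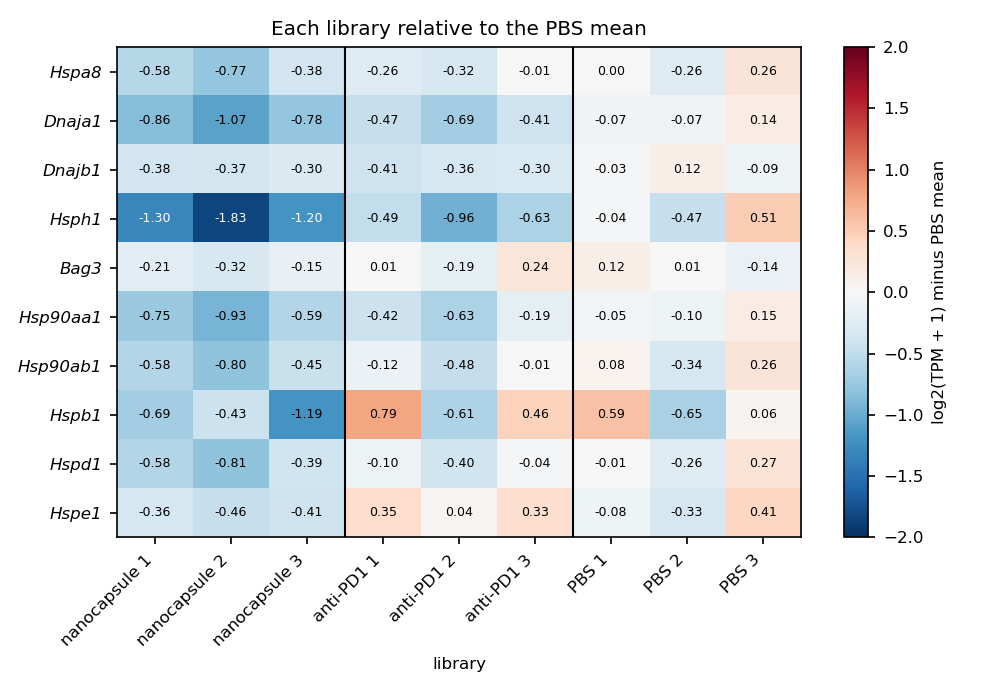
Log2(TPM + 1) of each gene (rows) in each of the 9 libraries (columns) minus the PBS mean of that gene, on a colour scale from -2 to 2. The nanocapsule columns are below 0 throughout, down to -1.83 for Hsph1 in nanocapsule 2, and within each group library 2 is the lowest in most rows.

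Most of the chaperones also varied together within groups. The Pearson correlation of a gene's deviations from its group means with those of the mean of the other 9 genes, over the 9 libraries and as a description, was 0.81 to 0.98 for 7 genes. It was 0.40 for Bag3, 0.37 for Hspb1 and -0.49 for Dnajb1. Relative to its PBS mean, log2(TPM + 1) of Dnajb1 was -0.03, 0.12 and -0.09 in the PBS lungs. In the treated lungs it stayed between -0.41 and -0.30, so the negative value rests mainly on the PBS lungs. Nanocapsule 2 was the lowest of its group in 8 of the 10 genes, anti-PD1 2 in 9 and PBS 2 in 8, while PBS 3 was the highest of all 9 libraries in 7. Relative to the PBS mean, the mean log2(TPM + 1) of the 10 genes was -0.63, -0.78 and -0.58 in the nanocapsule lungs, -0.11, -0.46 and -0.06 in the anti-PD1 lungs and 0.05, -0.24 and 0.19 in the PBS lungs. The nanocapsule lungs were below every other lung on this measure, and anti-PD1 2 lay below PBS 2.

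Markers of B cells, T cells and neutrophils were set beside this mean. In each group the library lowest in the chaperone mean was also lowest in the summed B cell markers and in the summed T cell markers, and highest in the summed neutrophil markers. It was library 2 in all 3 groups, so these may not be 3 separate observations. The 8 B cell markers, all detected, summed to 191 to 267 TPM in the nanocapsule lungs, 335 to 573 TPM in the anti-PD1 lungs and 320 to 616 TPM in the PBS lungs. The 8 T cell markers, all detected, summed to 200 to 241 TPM in the nanocapsule lungs, 230 to 645 TPM in the anti-PD1 lungs and 254 to 518 TPM in the PBS lungs. The 11 neutrophil markers, all detected, summed to 170039 to 193521 TPM in the nanocapsule lungs, 112124 to 129045 TPM in the anti-PD1 lungs and 133327 to 184364 TPM in the PBS lungs. For the nanocapsule against PBS, all 8 B cell, all 8 T cell and 3 of 11 neutrophil markers were lower, against 71.2% of all tested genes. For anti-PD1 against PBS, 5 of 8 B cell, 0 of 8 T cell and all 11 neutrophil markers were lower, against 43.1%. In that comparison 7 of the 10 chaperones were lower. The part of these cells in the chaperone levels was not tested.

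The genes most like the chaperone mean over the 9 libraries, as a description, were Ighm, Vars, Stip1, Bank1 and Rbbp5, with a Pearson likeness of 0.996, 0.976, 0.974, 0.971 and 0.968. Ighm is the heavy chain constant region of immunoglobulin M and Bank1 a B cell scaffold protein, Vars charges transfer RNA with valine, Stip1 joins HSP70 to HSP90, and Rbbp5 is a subunit of histone methyltransferase complexes. Ighm had 233, 209 and 249 TPM with the nanocapsule, 400, 261 and 422 TPM with anti-PD1 and 462, 352 and 550 TPM with PBS. The order of the libraries within each group was that of the chaperone mean.

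The inducible HSP70 genes Hspa1a and Hspa1b were lower in both treated groups than any of the 10 chaperones relative to PBS, with Hspa1b at 0.168 of the PBS mean in the nanocapsule lungs and 0.237 in the anti-PD1 lungs. Hspa1b was the gene called by limma in each of the 3 comparisons with PBS (adjusted p = 0.00623 for the nanocapsule, 0.0445 for anti-PD1 and 0.00416 pooled), and PBS 2, which was lowest in 8 of the chaperones within its group, was highest in Hspa1b at 53.5 TPM.

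The wider chaperone network was described over 71 genes in 6 lists, of which 67 were tested. In the nanocapsule lungs 57 of the 67 were lower than in the PBS lungs, against 71.2% of all tested genes, with a median log2 difference of -0.18. In the anti-PD1 lungs 25 of the 67 were lower, against 43.1% of all tested genes, with a median of 0.08. None was called by limma in any comparison. At an unadjusted limma p of 0.05, 13 were lower and 0 higher in the nanocapsule lungs, against 8.92% and 1.22% of all tested genes. In the anti-PD1 lungs 3 were lower and 5 higher, against 8.06% and 8.48%.

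Co-chaperones of HSP90 came closest to the 10 chaperones. In the nanocapsule lungs 12 of 13 were lower than with PBS, against 71.2% of all tested genes, with a median of -0.30. In the anti-PD1 lungs 7 of 13 were lower, against 43.1%, with a median of -0.00444. Stip1 was at 30.7 ± 2.35 TPM with the nanocapsule, 48.2 ± 5.59 TPM with anti-PD1 and 57.2 ± 14.1 TPM with PBS (SD, n = 3). Its log2 difference from PBS was -0.85 for the nanocapsule (SE 0.16, limma adjusted p = 0.280). Chordc1, an HSP90-binding protein induced by heat, was at 15.1 ± 1.22 TPM with the nanocapsule, 20.3 ± 2.46 TPM with anti-PD1 and 27.4 ± 6.50 TPM with PBS (SD, n = 3). Ahsa1, the activator of the HSP90 ATPase, was at 115 ± 1.96 TPM with the nanocapsule, 107 ± 1.75 TPM with anti-PD1 and 126 ± 8.03 TPM with PBS (SD, n = 3). All its nanocapsule lungs lay above its anti-PD1 lungs and below its PBS lungs.

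Of the partners of HSP70, 15 of 18 were lower in the nanocapsule lungs than with PBS, against 71.2% of all tested genes, with a median of -0.17. In the anti-PD1 lungs 9 of 18 were lower, against 43.1%. Dnajb2, a J-domain protein that carries clients to the proteasome, was at 7.76 ± 1.35 TPM with the nanocapsule, 12.03 ± 2.07 TPM with anti-PD1 and 12.7 ± 1.36 TPM with PBS (SD, n = 3). Dnajc7, a J-domain protein that also binds HSP90, was at 98.3 ± 3.65 TPM with the nanocapsule, 125 ± 6.47 TPM with anti-PD1 and 118 ± 13.4 TPM with PBS (SD, n = 3). Against PBS, the genes of this list with the smallest p in the anti-PD1 lungs lay on opposite sides of 0: Dnajb5, another HSP40, stood at -0.50 on the log2 scale (SE 0.17, limma adjusted p = 0.227) and Stub1, the ubiquitin ligase CHIP, at 0.28 (SE 0.10, limma adjusted p = 0.235).

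In the mitochondrial folding and import list, 12 of 12 genes were lower in the nanocapsule lungs (median -0.14), and 9 of 12 were higher in the anti-PD1 lungs (median 0.09), each against PBS. Of all tested genes, 71.2% were lower with the nanocapsule (median -0.11) and 43.1% were lower with anti-PD1 (median 0.04). Hspa9, the mitochondrial HSP70, was at 34.1 ± 5.52 TPM with the nanocapsule, 50.2 ± 6.02 TPM with anti-PD1 and 40.9 ± 7.02 TPM with PBS (SD, n = 3), the order in which Hspe1 also stood. Dnaja3, its J-domain partner, was at -0.40 on the log2 scale for the nanocapsule against PBS (SE 0.15, limma adjusted p = 0.430), and Yme1l1, an inner membrane protease, at -0.28 (SE 0.12, limma adjusted p = 0.487). For anti-PD1 against PBS, Yme1l1 was at -0.18 (SE 0.12, limma adjusted p = 0.478).

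The cytosolic chaperonin TRiC and its partner prefoldin had 11 of 14 genes lower in the nanocapsule lungs than with PBS (median -0.16). In the anti-PD1 lungs 10 of 14 were higher than with PBS (median 0.11). Over all tested genes 71.2% were lower with the nanocapsule (median -0.11) and 43.1% with anti-PD1 (median 0.04). The TRiC subunit genes Cct6a and Cct8 had log2 differences of -0.37 (SE 0.15) and -0.27 (SE 0.11) for the nanocapsule against PBS (limma adjusted p = 0.468 for both). The prefoldin genes Pfdn6 and Pfdn5 had 0.26 each for anti-PD1 against PBS (SE 0.09 and 0.10, limma adjusted p = 0.235 and 0.262).

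Genes listed by name as small heat shock proteins, other than Hspb1, were scarce: of 8 genes, 5 were tested and Hspb3 was at 0 TPM in all libraries. All 5 were lower with the nanocapsule than with PBS, as were 71.2% of all tested genes. With anti-PD1 all 5 were higher than with PBS, where 43.1% of all tested genes were lower. Cryab, the lens and muscle crystallin, was at 7.26 ± 1.66 TPM with the nanocapsule, 12.4 ± 2.69 TPM with anti-PD1 and 7.66 ± 3.06 TPM with PBS (SD, n = 3). Hspb11 and Hspb6 had log2 differences of -0.24 (SE 0.26, limma adjusted p = 0.761) and -0.15 (SE 0.21, limma adjusted p = 0.826) for the nanocapsule against PBS, both smaller than their errors. For anti-PD1 against PBS, Hspb11 had 0.21 (SE 0.26, limma adjusted p = 0.729).

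The factors that drive or limit the heat shock response showed no common direction. With the nanocapsule 2 of 5 tested genes were lower than with PBS, against 71.2% of all tested genes. Hsf1, the master factor, was at 12.01 ± 1.28 TPM with the nanocapsule, 16.9 ± 2.40 TPM with anti-PD1 and 15.7 ± 3.01 TPM with PBS (SD, n = 3), a log2 difference of -0.35 for the nanocapsule against PBS (SE 0.16, limma adjusted p = 0.491). For anti-PD1 against PBS, Hsf2, a related factor, had 0.45 (SE 0.18, limma adjusted p = 0.260) and Hsbp1, a protein that binds HSF1 trimers, 0.13 (SE 0.08, limma adjusted p = 0.428).

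**Figure D5:**
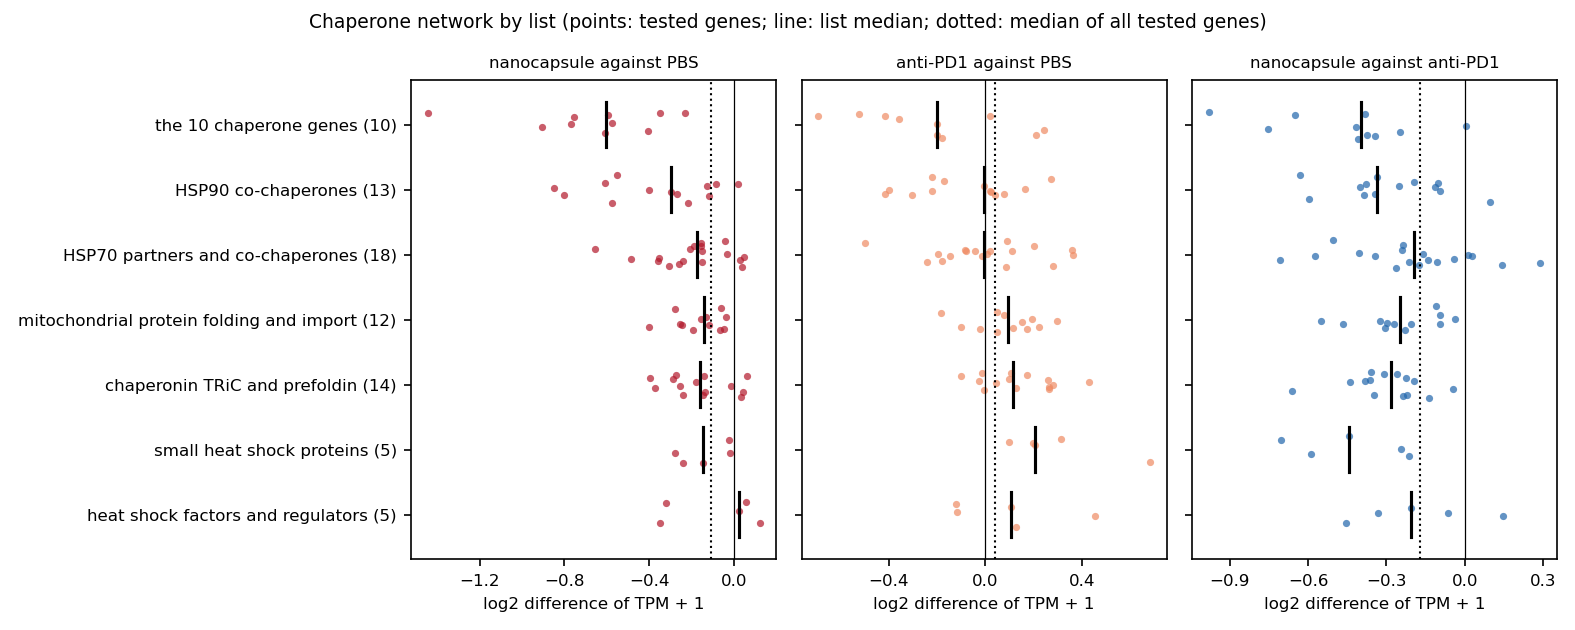
Log2 difference of TPM + 1 (x axes) for the tested genes of the 10 chaperones and of 6 lists of the wider chaperone network (rows, number of genes in parentheses) in 3 comparisons (panels). Points are genes, black lines the medians of the lists and dotted lines the medians of all tested genes. The 10 chaperones have the lowest list median for the nanocapsule against PBS (-0.60), ahead of the HSP90 co-chaperones (-0.30).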

How the data were processed

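The deposited values are gene-level TPM, 1 column per lung, and the columns share the same total. The authors' table carries salmon in its name. DESeq2 and GRCm38 are listed in the submitters' processing notes, with neither version nor role. The sources used here do not state the annotation or any filter. Depth is unknown, and no count test was applied.

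The 13248 genes at 1 TPM or more in 3 or more of the 9 libraries entered limma 3.58.1 (R 4.3.3). Values were log2(TPM + 1), and the fit had a variance trend, 1 spread shared by the 3 groups (6 residual degrees of freedom), two-sided tests and Benjamini-Hochberg adjustment over all tested genes. A pseudocount understates differences of low genes. The fit was tested on simulated data first. Of 8 pseudogenes named after the chaperones, 5 were at 0 in all libraries, and the highest value was 1.25 TPM. Promoter sequences are from RefSeq (GRCm38.p6), and gene positions from GENCODE M21 (GRCm38).

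The 10 genes, the lists, the marker sets and the motif were chosen with earlier results of these data known. All 10 genes are described. From each list the pair with the smallest p against PBS for each treatment is named, except 1 gene that is not reported here, and the 5 genes most alike to the chaperone mean were taken among those with a mean of at least 5 TPM. Ratios were compared by exact permutation tests, two-sided. The alternatives were 2 pseudocounts, 2 filters, 3 scalings, 2 variance models, a fit on the compared groups, a replicate block and the omission of each library.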

Additional observations from a re-analysis of the deposited data

How the results depend on the processing

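The depth of the libraries is unknown, so no counting error could be given. All 10 chaperones kept their direction for the nanocapsule against PBS under every alternative run. For anti-PD1 against PBS, Bag3 was at -0.052 with median-of-ratios scaling and at -0.047 with quantile normalization, and from -0.091 (without anti-PD1 3) to 0.12 with 1 library left out, while Hspb1 ranged from -0.11 (without PBS 2) to 0.62 (without anti-PD1 2). For the antibody forms pooled against PBS, Hspb1 ranged from -0.61 to 0.016 (without PBS 1) and Hspe1 from -0.25 to 0.12 (without PBS 3), and Dnajb1 in the nanocapsule minus anti-PD1 difference ranged from -0.021 (without nanocapsule 3) to 0.031, each with 1 library left out. The cause of these turns was not tested.

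The number of genes called for the nanocapsule against PBS, 1 as reported, was 2 with a pseudocount of 0.1 or no variance trend, 0 with no filter or quantile normalization, 4 with median-of-ratios scaling or robust variance, 3 after rescaling without S100a8, S100a9, mitochondrial and haemoglobin genes, and 0 (without nanocapsule 1, nanocapsule 3 or PBS 3) to 4 (without PBS 2) with 1 library left out. Of the 10 chaperones, 1 was called there, Dnaja1, with median-of-ratios scaling (-0.78, limma adjusted p = 0.0341), the rescaling (limma adjusted p = 0.0377) or robust variance (limma adjusted p = 0.0427). For anti-PD1 against PBS, 1 gene as reported, there were 0 with a pseudocount of 0.1, median-of-ratios scaling, quantile normalization, the rescaling or no variance trend, 2 with a pseudocount of 5, and 0 to 3 with 1 library left out (3 without nanocapsule 1 or PBS 1, 1 without anti-PD1 3, 0 without any other), and none of the 10 chaperones was called under any alternative run. For the forms pooled, 1 gene as reported, there were 0 with no filter, 3 with a filter of 5 TPM, 2 with median-of-ratios scaling and 1 to 4 (without PBS 2) with 1 library left out, and 1 chaperone was called, Dnaja1, with median-of-ratios scaling (-0.69, limma adjusted p = 0.0192). For the nanocapsule against anti-PD1, 14 genes as reported, there were 3 with no filter, 182 with a filter of 5 TPM, 22 with median-of-ratios scaling, 75 with quantile normalization, 79 after the rescaling, 2 with no variance trend, 79 with robust variance, 526 in a fit of these groups alone and 0 to 960 with 1 library left out (960 without PBS 2, 194 without PBS 3, 12 without PBS 1, 5 or fewer without a nanocapsule or anti-PD1 library). There 1 chaperone, Hspe1, was called in the fit of these groups alone, and 0 to 1, again Hspe1, with 1 library left out (without PBS 2 or PBS 3).

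The replicate numbers were not taken as pairs: over the tested genes, the correlation of deviations from the group means between libraries of the same number was over 0.1 in 3 of 9 pairs (-0.18 to 0.28), although 6 of 9 libraries correlated best with their own number and library 2 had the lowest chaperone mean in each of the 3 groups. With the replicate block, 5 genes were called for the nanocapsule against PBS, 3 of them chaperones (Dnaja1, Hsp90aa1 and Hsph1), and 1095 for the nanocapsule against anti-PD1, 7 of them chaperones.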
